A study of Homo sapiens with 6 samples.

Results

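The genes described here encode protein subunits of the mitochondrial ribosome. They were taken as every row of an RNA-seq table whose symbol is MRPL or MRPS followed by a number, leaving out the pseudogenes MRPL45P2 and MRPS31P5. This gave 75 of 12760 genes, 48 with a large subunit symbol (MRPL) and 27 with a small subunit symbol (MRPS). The libraries were made from total RNA of MM.1S, an established human line of malignant plasma cells (multiple myeloma). LenR denotes MM.1S cells selected for resistance to lenalidomide, starting at 10 nM with a 10-fold step each month for 3 months, and WT denotes MM.1S cells carried in parallel in the solvent DMSO. Both groups are labelled wild type in genotype, lenalidomide or DMSO in treatment, and had 3 libraries each, named biological replicates. Whether lenalidomide was present at harvest, and whether separate resistant lines were raised, is not given in the labels, so drug exposure and selection cannot be told apart, and the p-values below measure the spread between these cultures.

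The mitochondrial ribosome translates the few proteins encoded by mitochondrial DNA, which are core subunits of the respiratory chain and of ATP synthase. Its RNAs come from mitochondrial DNA, whereas all of its proteins are encoded in the nucleus, made in the cytosol and imported. The large subunit holds the peptidyl transferase centre and the exit tunnel, and the small subunit holds the decoding centre. Symbols do not always give the place in the particle: MRPS30 and MRPS18A sit in the large subunit, and MRPS36 was later described as a subunit of the oxoglutarate dehydrogenase complex.

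All 75 genes had a mean of at least 1 FPKM (a level corrected for the length of the gene and the depth of the library), the filter for the test, and none was lost to it. Reads worked out from the FPKM values ranged from 14500140 to 17387914 per library, of which these genes took 57681 to 77104, or 0.375% to 0.443%. A gene had between 166 and 3099 reads in a library. LenR replicate 2 and WT replicate 3, called the low pair below, stood apart from the other libraries on the second principal component (26.8% of the variance, against 58.1% for the component that separated LenR from WT). They lay at −13.7 and −14.0 on it. The other libraries were not alike on it either, with LenR replicate 3 at 12.7 and the rest at 2.62 to 6.62. WT replicates 1 and 2 were unusually close, with a mean chi-square of their reads per gene of 1.65, against 10.2 to 26.2 for the other pairs within a group. The median chi-square relative to that of sampling alone was 1.16, against 4.64 to 9.09 for the other pairs. These values cannot tell separate cultures from repeat libraries of 1 culture. The libraries were kept as 2 samples, as labelled, and refits with them averaged are given below. Of 10 plasma cell markers, 9 were in the table, with a summed level of 4617 to 5550 FPKM in LenR libraries and 3918 to 4534 FPKM in WT libraries. JCHAIN made the largest part of this sum (means 2602 FPKM in LenR and 2233 FPKM in WT) and did not pass (limma adjusted p = 0.437). Of the 9, 5 passed as higher in LenR, against 8.57% of all genes tested, a difference that was not tested. The B cell genes MS4A1, PAX5 and CD22 were not among the rows analysed here, and the summed B cell markers that were, BCL6 and CIITA, lay at 4.91 to 6.21 FPKM in LenR and 6.68 to 7.71 FPKM in WT. The summed markers of T and NK cells lay at 1.86 to 2.09 FPKM in LenR and 2.26 to 2.9 FPKM in WT, those of epithelial and stromal cells at 4.58 to 5.6 and 3.83 to 4.33 FPKM, those of erythroid cells at 5.55 to 8.31 and 5.83 to 7.11 FPKM, and those of myeloid cells, all from CD68, at 17.3 to 19.3 and 12.9 to 16.6 FPKM, each pair given as LenR and WT. These lists had 1 or 2 of 6 genes in the table, and their part in the results was not tested.

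Few of these genes passed the test between LenR and WT. With limma on log2(FPKM + 1) and Benjamini-Hochberg adjustment over all 11276 genes tested, 2 of 75 (2.67%) passed an adjusted p of 0.05, both lower in LenR and both of the large subunit, MRPL44 and MRPL22. Over all genes tested the share was 15.1% (8.57% higher and 6.57% lower). The difference between these shares was not tested. An unadjusted p under 0.05 was reached by 6 members (8%), against 28.7% of all genes tested. LenR and WT values did not overlap in 9 members (12%), 1 higher and 8 lower in LenR, against 34.5% of all genes tested (18% higher and 16.5% lower). For 65 members (86.7%) the 95% interval of the fold change lay within 1.5-fold in either direction, as it did for 84.7% of all genes. The median half-width of that interval on the log2 scale was 0.25 for members and 0.20 for all genes tested. In a fit that gave the low pair a term of its own, these half-widths were 0.14 and 0.15. In that fit 72 of the 75 intervals (96%) lay within 1.5-fold, against 89.1% for all genes. The low pair was picked because it stood apart in these same values, not from a batch given in the labels.

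**Figure D1:**
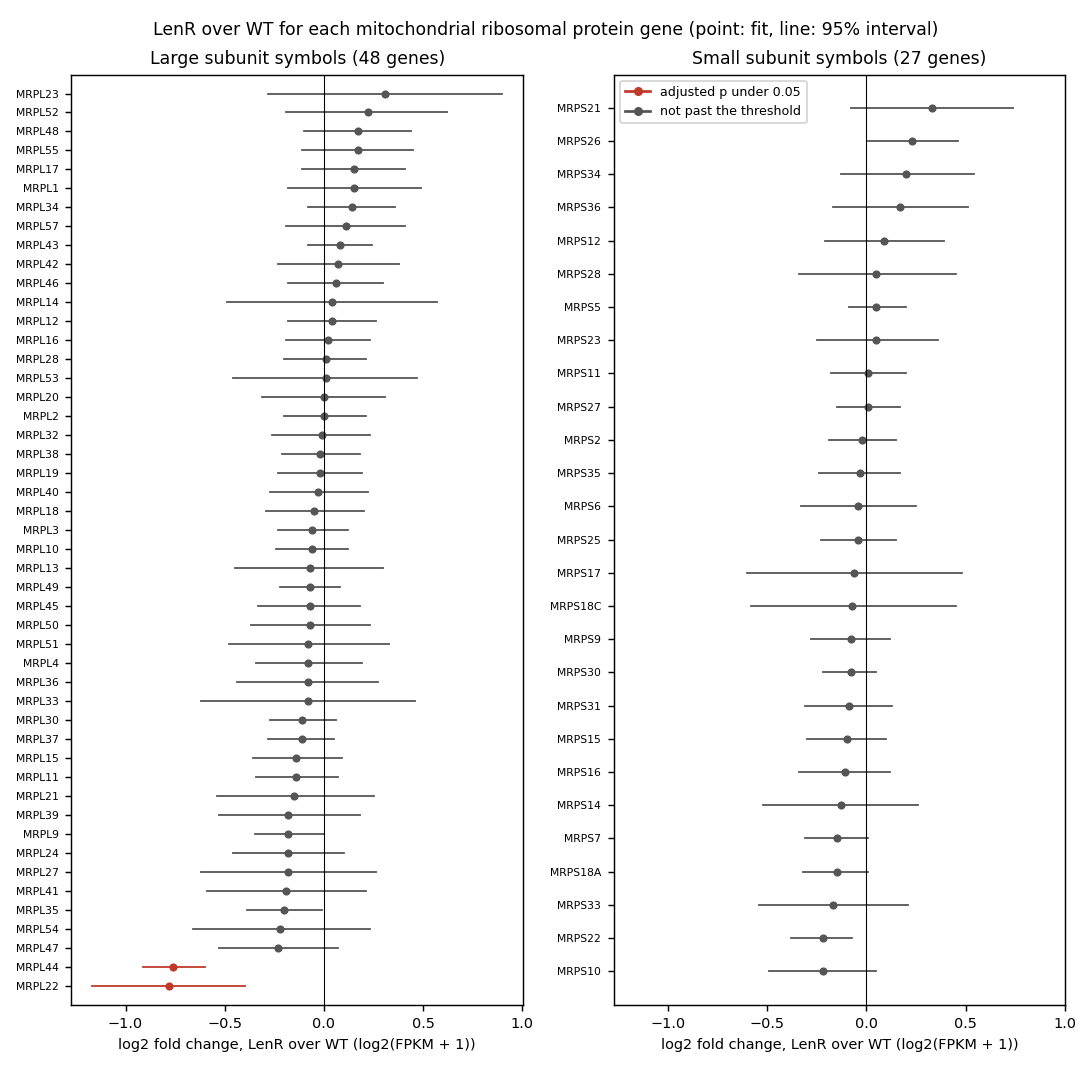
Log2 fold change of LenR over WT with its 95% interval for each of the 48 large subunit and 27 small subunit genes, ordered by value. MRPL44 and MRPL22, in red, are the genes past an adjusted p of 0.05 and lie at −0.76 and −0.78, while the small subunit genes run between −0.22 and 0.33.

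The fold changes of both subunits centred near 0. The median log2 fold change was −0.06 for the 48 large subunit genes (quartiles −0.14 and 0.04, range −0.78 to 0.31), −0.04 for the 27 small subunit genes (quartiles −0.11 and 0.05, range −0.22 to 0.33) and 0.00 over all genes tested. Below 0 were 30 of the 48 large subunit and 17 of the 27 small subunit genes. None of the small subunit genes passed the limma test in either direction, nor with voom on the reads worked out from the FPKM values. Of them, 2 (7.41%, against 28.7% of all genes tested) had an unadjusted p under 0.05. With a term for the low pair in the fit, 3 passed (11.1%, against 28.1% of all genes tested). With that pair left out, 1 passed (3.7%, against 16.2%). With MRPS30 and MRPS18A counted as large and MRPS36 left out, the medians were the same to 2 decimals.

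Summed over its genes, the large subunit reached 2274, 1845 and 2271 FPKM in LenR replicates 1 to 3 and 2309, 2298 and 1997 FPKM in WT replicates 1 to 3. The small subunit summed to 1146, 955 and 1117 FPKM in LenR and to 1101, 1096 and 993 FPKM in WT. For both subunits the LenR and WT sums overlapped, and the lowest library of each group was LenR replicate 2 or WT replicate 3. The ratio of large to small sums was 1.98, 1.93 and 2.03 in LenR (mean 1.98 ± 0.0503 SD, n = 3) and 2.10, 2.10 and 2.01 in WT (2.07 ± 0.0491 SD, n = 3). Sorted by symbol, the ranges of this ratio overlapped, since LenR replicate 3 lay above WT replicate 3. With MRPS30 and MRPS18A counted as large and MRPS36 left out, the ranges did not overlap. The ratio was then 2.15, 2.11 and 2.2 in LenR and 2.27, 2.28 and 2.21 in WT, a difference that was not tested. The sum of the small subunit leans on MRPS34. Without MRPS34, the ratio by symbol was 2.31 ± 0.0522 in LenR and 2.35 ± 0.0295 in WT. No p is given for these sums, which combine genes that share libraries.

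**Figure D2:**
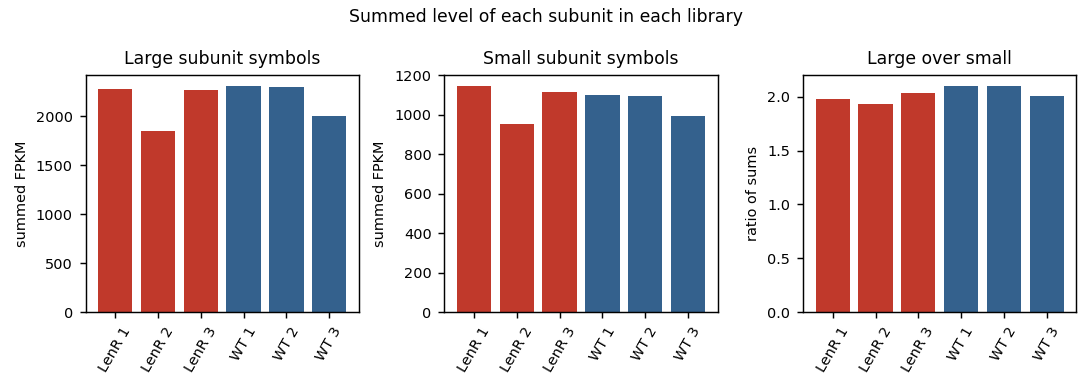
Summed FPKM of the large subunit genes, of the small subunit genes, and the ratio of the sums, 1 bar per library with LenR in red and WT in blue. LenR replicate 2 and WT replicate 3 are the lowest bars of their groups in both sums, and the ratio stays between 1.93 and 2.10.

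Most of these genes were low in the same 2 libraries, 1 of each group. Measured as log2(FPKM + 1) relative to each gene's own mean over the 6 libraries, the median member lay at 0.05, −0.18 and 0.09 in LenR replicates 1 to 3 and at 0.08, 0.09 and −0.10 in WT replicates 1 to 3, while the median of all genes tested stayed within 0.01 of 0 in every library. LenR replicate 2 was the lowest LenR library for 63 of 75 members (84%), against 35% of all genes tested. WT replicate 3 was the lowest WT library for 59 members (78.7%), against 43.8% of all genes. Both held at once for 56 members (74.7%) and for 26.4% of all genes. Gene length moved with this pattern. Among members with a gene length under 1000 bases (22 genes), the median deviation was −0.35 in LenR replicate 2 and −0.16 in WT replicate 3, and among members of 2000 bases or more (18 genes) it was −0.13 and −0.04. Over all genes tested the same length classes gave −0.19 and −0.18 for the short genes and 0.02 and 0.01 for the long ones. The median length was 1327 bases for members and 3136 bases for all genes tested, and the part of length or RNA quality in the pattern was not tested. The sign of the fold change in the other 4 libraries matched the sign between LenR replicate 2 and WT replicate 3 in 50 of 75 members (66.7%) and in 77% of all genes tested.

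**Figure D3:**
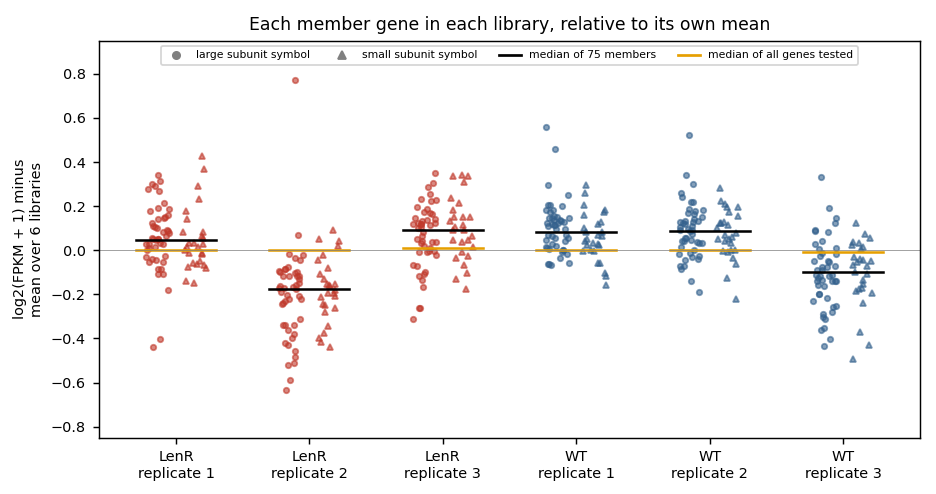
Each point is 1 of the 75 genes in 1 library, as log2(FPKM + 1) minus the gene's mean over the 6 libraries, with the median of the members in black and the median of all genes tested in orange. The members' median is lowest in LenR replicate 2 (−0.18) and WT replicate 3 (−0.10), where the median of all genes stays near 0.

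MRPL44 and MRPL22 were lower in LenR by about the same amount. MRPL44 encodes a large subunit protein with a ribonuclease III-like fold, and inherited variants in it cause a cardiomyopathy with deficient oxidative phosphorylation. It measured 13.6, 13.4 and 14.6 FPKM in LenR replicates 1 to 3 and 25.6, 23.5 and 23.4 FPKM in WT replicates 1 to 3. Every LenR library lay far below every WT library, and the low pair lay close to the other libraries of their groups. MRPL44 fell to 13.9 ± 0.62 FPKM in LenR, against 24.1 ± 1.26 FPKM in WT (SD, n = 3 each), with a log2 fold change of −0.76 (SE 0.0683, 95% interval −0.91 to −0.60, limma adjusted p = 0.000365), and it still passed when any single library was dropped (highest adjusted p 0.00427). In bulk RNA, fewer cells that express the gene and less RNA per cell cannot be told apart.

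MRPL22 encodes a protein that lines the exit tunnel for the nascent chain. It is among the lowest members in level, with 4.91, 4.16 and 6.49 FPKM in LenR replicates 1 to 3 and 10.8, 10.5 and 7.53 FPKM in WT replicates 1 to 3. The groups did not overlap, but WT replicate 3 came close to LenR replicate 3. MRPL22 fell to 5.19 ± 1.19 FPKM in LenR, against 9.62 ± 1.82 FPKM in WT (SD, n = 3 each), with a log2 fold change of −0.78 (SE 0.166, 95% interval −1.17 to −0.40, limma adjusted p = 0.017). The call was lost on dropping LenR replicate 1 (limma adjusted p = 0.0832). It was also lost on dropping WT replicate 1 (adjusted p = 0.0626) or WT replicate 2 (adjusted p = 0.0615), and on averaging these libraries into 1 sample (adjusted p = 0.0619).

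**Figure D4:**
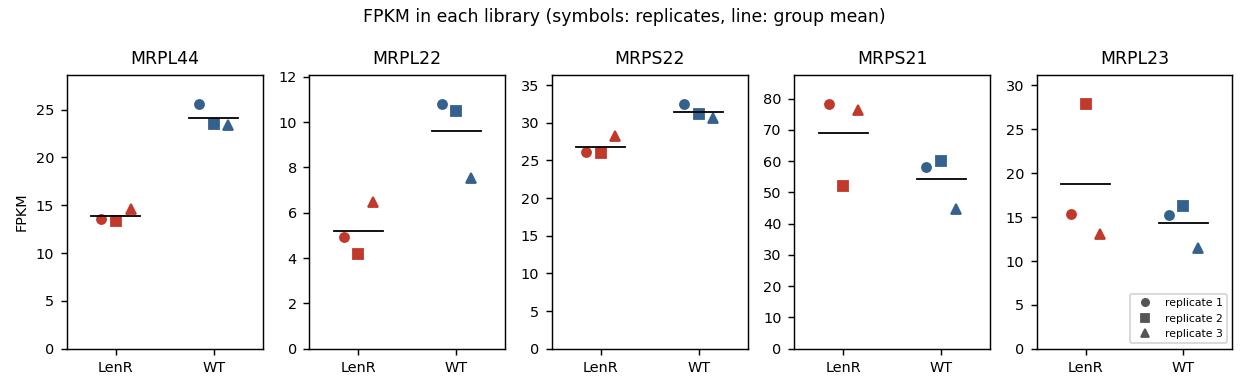
FPKM of MRPL44, MRPL22, MRPS22, MRPS21 and MRPL23 in each library, with symbols for the replicates and a line for the group mean. MRPL44 and MRPL22 show no overlap between LenR and WT, MRPS21 does, and MRPL23 has a single high library, LenR replicate 2 at 27.9 FPKM.

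Both genes lie among chromosomal neighbours that were lower as well. MRPL44 is on chromosome 2 (223957404 to 223967714, plus strand, GRCh38). The 31 tested genes within 5 Mb that are no members centred on a log2 fold change of −0.64 (median), all 31 of them below 0 and 25 called lower. MRPL22 is on chromosome 5 (154941070 to 154969411, plus strand, GRCh38), and its 32 neighbours had a median of −0.66, with 31 below 0 and 26 called lower. Relative to these medians, MRPL44 lay at −0.12 and MRPL22 at −0.12. The other 73 members, spread with these over 21 chromosomes, had neighbours with a median between −0.10 and 0.06, and none of them was called. Lower stretches on chromosomes 2 and 5 had been seen in an earlier analysis of these data, so the neighbours are a description and no independent evidence.

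**Figure D5:**
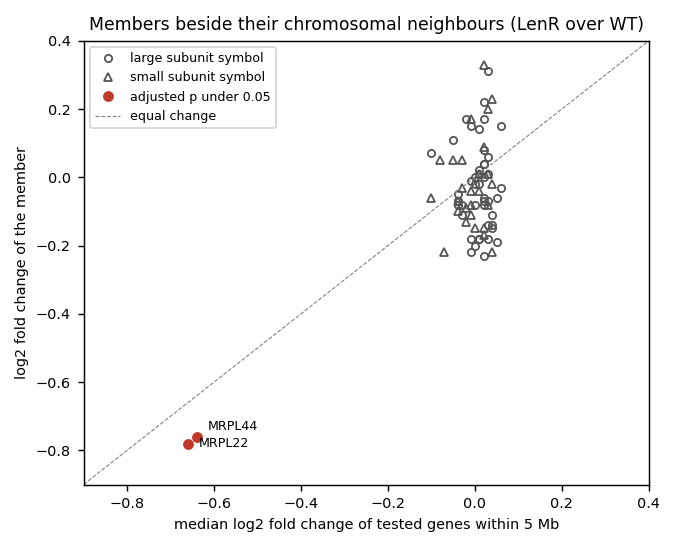
Log2 fold change of each member (vertical) against the median log2 fold change of the tested genes within 5 Mb of it (horizontal), LenR over WT. MRPL44 and MRPL22 lie near the line of equal change at the lower left, and the other members belong to neighbourhoods with medians close to 0.

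Just short of passing was MRPS22, a small subunit protein specific to mitochondria in which inherited variants cause respiratory chain deficiency. It measured 26.1, 26.0 and 28.3 FPKM in LenR and 32.5, 31.2 and 30.6 FPKM in WT, without overlap, with a log2 fold change of −0.22 (SE 0.0664, limma adjusted p = 0.0623). The highest fold change of any member was that of MRPS21, a homologue of a bacterial small subunit protein. It measured 78.3, 52.2 and 76.5 FPKM in LenR and 58.1, 60.1 and 44.7 FPKM in WT. LenR replicate 2 lay inside the WT range, and the log2 fold change was 0.33 (SE 0.175, adjusted p = 0.268). Once the low pair had its own term, both genes passed (limma adjusted p = 0.0164 for MRPS22 and 0.00303 for MRPS21). The pair was picked from these same values, so the p-values and calls of this fit are not independent of that choice. This fit called 8 of the 75 members (10.7%), against 28.1% of all genes tested (15.3% higher and 12.7% lower): MRPS21 as higher, and MRPL44, MRPL22, MRPL47, MRPS22, MRPS10, MRPL9 and MRPL24 as lower, the last 5 at log2 fold changes of −0.23 to −0.18. With the low pair left out, 3 members passed (4%), MRPL44, MRPL22 and MRPS21, against 16.2% of all genes (9.13% higher and 7.04% lower).

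Promoter sequences were looked at because these genes are known to share regulators, among them the ETS factor GABPA, NRF1 and YY1. Whether such regulators bear on the low values in LenR replicate 2 and WT replicate 3 was not tested. RefSeq promoters on GRCh38.p14, running from 250 bases before to 50 bases after the annotated start, were found for 66 of the 75 genes. The stretch before the start is printed for the called genes MRPL44 and MRPL22, for MRPS21 and MRPS22, and for MRPS34, the small subunit gene with the highest level. Capitals mark matches, on either strand, to the ETS letters CCGGAAG, the YY1 letters AAGATGG, the GC box letters GGGCGG, the CCAAT box and the E-box letters CACGTG. Matches to NRF1 and to TATAAA were left in lower case, among them the NRF1 core TGCGCA of MRPL22 at −25.
MRPL44 (chr2:223957213-223957462, plus strand): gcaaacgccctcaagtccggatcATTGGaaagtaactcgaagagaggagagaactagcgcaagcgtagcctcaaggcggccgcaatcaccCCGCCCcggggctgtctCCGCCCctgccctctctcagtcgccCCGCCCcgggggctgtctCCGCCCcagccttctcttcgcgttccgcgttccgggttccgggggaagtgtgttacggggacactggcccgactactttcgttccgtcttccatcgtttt
MRPL22 (chr5:154940823-154941072, plus strand): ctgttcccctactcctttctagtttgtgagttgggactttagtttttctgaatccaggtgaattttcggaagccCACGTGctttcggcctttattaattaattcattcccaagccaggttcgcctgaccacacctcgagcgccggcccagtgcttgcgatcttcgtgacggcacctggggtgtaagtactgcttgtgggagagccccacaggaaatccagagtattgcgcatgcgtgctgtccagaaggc
MRPS21 (chr1:150293611-150293860, plus strand): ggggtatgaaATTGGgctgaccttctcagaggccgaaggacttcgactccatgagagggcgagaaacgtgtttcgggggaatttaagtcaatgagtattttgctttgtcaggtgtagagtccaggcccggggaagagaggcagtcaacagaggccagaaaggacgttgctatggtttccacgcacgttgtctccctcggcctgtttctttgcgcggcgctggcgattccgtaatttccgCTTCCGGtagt
MRPS22 (chr3:139343744-139343993, plus strand): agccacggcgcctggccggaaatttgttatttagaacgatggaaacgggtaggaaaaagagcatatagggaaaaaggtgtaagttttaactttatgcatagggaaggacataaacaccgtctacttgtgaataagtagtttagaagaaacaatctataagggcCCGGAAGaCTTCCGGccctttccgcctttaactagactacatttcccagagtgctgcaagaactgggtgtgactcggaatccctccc
MRPS34 (chr16:1773135-1773384, minus strand): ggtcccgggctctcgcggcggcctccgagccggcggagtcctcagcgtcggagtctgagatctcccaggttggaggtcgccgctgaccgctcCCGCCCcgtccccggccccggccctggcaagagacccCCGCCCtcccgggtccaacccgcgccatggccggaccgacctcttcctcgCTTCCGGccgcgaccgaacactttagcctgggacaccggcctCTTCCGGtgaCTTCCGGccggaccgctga

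The ETS letters CCGGAAG occurred, on either strand, in 28 of the 66 promoters (42.4%), in 16 of 41 large subunit (39%) and 12 of 25 small subunit promoters (48%). They were in 19.7% of the 9459 promoters of genes in the table and in 10.7% of all 27305 promoters. The YY1 letters AAGATGG were in 21 promoters (31.8%), against 7.87% of the table's genes and 6.06% of all promoters, and MRPL22 holds them within the first 50 bases after its start. The consensus of NRF1 was in 2 promoters (3.03%, against 3.01% and 1.59%), and its 6-letter core TGCGCA, which overlaps it, in 13 (19.7%, against 13.7% and 8.42%). GGGCGG was in 40 (60.6%, against 69.5% and 44.6%), CCAAT in 20 (30.3%, against 37% and 35.7%), CACGTG in 6 (9.09%, against 10.3% and 7.43%) and TATAAA in 2 (3.03%, against 5.36% and 12%). The median GC content was 60.3% in these promoters and 65.3% in those of the table's genes. MRPS34 and MRPS22 each hold more than 1 ETS match before the start, MRPS21 holds 1 there at −11, and MRPL44 and MRPL22 hold none in the window. A match is a run of letters and not a measured binding site.

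RNA levels of the members ranged 33.6-fold, from 5.22 FPKM for MRPL45 to 176 FPKM for MRPL51 (means over the 6 libraries). Of the 75, 69 lay above the median of all genes tested, 12.4 FPKM, and the median member lay at 36.3 FPKM. MRPL51, a mitochondria-specific large subunit protein, measured 182, 135 and 197 FPKM in LenR and 200, 194 and 145 FPKM in WT. Its groups overlapped, with the low value of each group in LenR replicate 2 and WT replicate 3. In GENCODE 29, 31.3% of its exon bases are shared with NCAPD2 on the opposite strand. Neither the strand setting nor the annotation of the counts is given, so whether reads of NCAPD2 entered these values cannot be told. MRPS34, a mitochondria-specific protein of the small subunit, measured 185, 142 and 122 FPKM in LenR and 127, 126 and 131 FPKM in WT (log2 fold change 0.20, SE 0.143, limma adjusted p = 0.405). LenR replicate 1 was high and LenR replicate 3 lay below all WT libraries. The levels of MRPL51 and MRPS34 overlapped in LenR libraries, while MRPL51 was the higher in every WT library.

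At the upper end of the large subunit, below MRPL51, were MRPL37 and MRPL12, with 115 FPKM each. MRPL37, another mitochondria-specific protein, measured 109, 114 and 110 FPKM in LenR and 119, 115 and 126 FPKM in WT (log2 fold change −0.11, adjusted p = 0.356 by limma). The groups did not overlap, yet the difference was small. MRPL12, the stalk protein that recruits translation factors and also binds the mitochondrial RNA polymerase, measured 128, 104 and 117 FPKM in LenR and 115, 118 and 105 FPKM in WT (0.04, 95% interval −0.18 to 0.26). Other proteins of the stalk and its base did not pass either. MRPL10 averaged 22 ± 1.79 FPKM in LenR and 22.9 ± 0.978 FPKM in WT, and MRPL11 averaged 33.1 ± 3.10 FPKM in LenR and 36.5 ± 2.12 FPKM in WT (SD, n = 3 each).

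At the lower end of the large subunit, MRPL45 measured 5.60, 4.85 and 4.71 FPKM in LenR and 5.88, 4.44 and 5.86 FPKM in WT. It anchors the ribosome to the inner membrane at the tunnel exit. The next lowest, MRPL19, had 7.24, 6.56 and 7.33 FPKM in LenR and 7.63, 7.65 and 6.22 FPKM in WT, so that the groups of both genes overlapped (log2 fold changes −0.07 and −0.02). MRPL22 came next. MRPL3, close to the peptidyl transferase centre, averaged 60.7 ± 2.63 FPKM in LenR and 63.2 ± 3.92 FPKM in WT. MRPL32, whose precursor is cut by the m-AAA protease of AFG3L2 and SPG7 before assembly, averaged 51.5 ± 5.78 FPKM in LenR and 51.9 ± 4.77 FPKM in WT. AFG3L2 (−0.13) and SPG7 (−0.10) did not pass either. MRPL41, also of the large subunit, varied widely, with 82.7, 51.4 and 60.4 FPKM in LenR and 77.4, 79.4 and 62.5 FPKM in WT (−0.19, 95% interval −0.59 to 0.21).

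In the small subunit, the highest levels after MRPS34 were those of MRPS33 and MRPS15. MRPS33 measured 73.9, 54.6 and 81.3 FPKM in LenR and 84.6, 83.9 and 65.7 FPKM in WT, and MRPS15 had 73.0, 62.3 and 74.6 FPKM in LenR and 76.0, 74.9 and 73.8 FPKM in WT. Their log2 fold changes were −0.17 and −0.10. The lowest were MRPS36, with 6.74, 4.70 and 7.64 FPKM in LenR and 5.13, 6.04 and 5.23 FPKM in WT, MRPS31 at 8.82 ± 1.15 FPKM in LenR and 9.42 ± 0.505 FPKM in WT, and MRPS9 at 18.4 ± 1.09 FPKM in LenR and 19.6 ± 1.91 FPKM in WT (SD, n = 3 each). All 3 overlapped between groups.

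None of the small subunit genes fixed by name passed. MRPS12, the homologue of the bacterial protein that sets decoding accuracy, averaged 50.2 ± 8.68 FPKM in LenR and 46.7 ± 3.68 FPKM in WT (log2 fold change 0.09). MRPS7 measured 53.5, 50 and 55.5 FPKM in LenR and 59.9, 58.5 and 58.0 FPKM in WT, without overlap (−0.15, SE 0.0685, limma adjusted p = 0.20). MRPS2 averaged 30.9 ± 2.26 FPKM in LenR and 31.3 ± 0.314 FPKM in WT. MRPS16, a gene in which inherited variants impair mitochondrial translation, averaged 44.4 ± 5.27 FPKM in LenR and 47.8 ± 2.99 FPKM in WT. MRPS27, a pentatricopeptide repeat protein, averaged 32.6 ± 1.76 FPKM in LenR and 32.3 ± 1.15 FPKM in WT, and MRPS6 averaged 34.8 ± 4.70 FPKM in LenR and 35.8 ± 4.51 FPKM in WT. The intervals of MRPS2 (−0.19 to 0.15) and MRPS27 (−0.15 to 0.17) were narrower than that of the typical member.

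Human cells have 3 paralogues of the bacterial protein S18, of which MRPS18A and MRPS18C were among the rows analysed here. MRPS18A, which sits in the large subunit, measured 29.3, 26.7 and 27.2 FPKM in LenR and 29.2, 31.8 and 32.0 FPKM in WT (log2 fold change −0.15, adjusted p = 0.197 by limma). MRPS18C, in the small subunit, measured 27.3, 19.4 and 33.4 FPKM in LenR and 32.3, 31.1 and 20.4 FPKM in WT (−0.07, 95% interval −0.58 to 0.45). The low values of MRPS18C were those of LenR replicate 2 and WT replicate 3. MRPS30, also a large subunit protein, measured 25.2, 24.6 and 24.2 FPKM in LenR and 25.8, 26.6 and 26.2 FPKM in WT, a small difference without overlap (−0.08, adjusted p = 0.418 by limma). The other members without overlap were MRPL9 (−0.18) and MRPL49 (−0.07), lower in LenR, and MRPS26 (0.23), higher in LenR; none of them passed.

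Subunits known under other symbols gave no call. DAP3, PTCD3, CHCHD1, AURKAIP1, GADD45GIP1 and ICT1, now counted as ribosomal proteins of mitochondria, had a median log2 fold change of 0.06, and none of the 6 passed, with 2 at an unadjusted p under 0.05. Over all genes tested 15.1% passed and 28.7% had an unadjusted p under 0.05, so counts among 6 genes cannot be told from these shares. DAP3, the GTP-binding protein of the small subunit, measured 80.2, 84.0 and 90.2 FPKM in LenR and 97.6, 96.5 and 96.1 FPKM in WT (−0.19, adjusted p = 0.129 by limma). ICT1, a peptidyl-tRNA hydrolase built into the large subunit, measured 23.7, 20.4 and 21.9 FPKM in LenR and 26.5, 24.8 and 24.3 FPKM in WT (−0.19, adjusted p = 0.147).

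Of 27 tested genes for assembly of the mitochondrial ribosome, 3 fell and none rose, where 15.1% of all genes tested were called (8.57% higher and 6.57% lower). The list's median was −0.05, beside 0.00 over all genes tested. FTSJ2, now MRM2, methylates the RNA of the large subunit and measured 21.7, 21.6 and 20.3 FPKM in LenR and 36.7, 35.8 and 37.1 FPKM in WT (log2 fold change −0.76, SE 0.0626, limma adjusted p = 0.000255). MALSU1, which keeps the subunits from joining too early, fell to 21.3 ± 2.41 FPKM in LenR, against 36.4 ± 2.97 FPKM in WT (−0.75, adjusted p = 0.00208). MTERF4, which guides an RNA methyltransferase to the ribosome, fell to 3.07 ± 0.274 FPKM in LenR, against 4.43 ± 0.41 FPKM in WT (−0.41, adjusted p = 0.0134), and passed in 4 of 6 refits that each dropped 1 library (highest adjusted p 0.0563). The neighbours of these genes within 5 Mb had median log2 fold changes of −0.72 for FTSJ2 and −0.55 for MALSU1, both on chromosome 7, and −0.37 for MTERF4 on chromosome 2.

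Of 20 mitochondrial translation factors, 1 rose and 1 fell (median −0.01), beside the same 15.1% of all genes. C12orf65, a factor that rescues stalled ribosomes, rose to 13.1 ± 0.424 FPKM in LenR, against 8.70 ± 0.415 FPKM in WT (log2 fold change 0.54, limma adjusted p = 0.0011), on chromosome 12 among neighbours with a median of 0.33. MTIF2, an initiation factor, fell to 16.8 ± 1.33 FPKM in LenR, against 20.6 ± 0.619 FPKM in WT (−0.28, adjusted p = 0.0393), a call that held in 1 of 6 such refits (highest adjusted p 0.153). The elongation factor TUFM measured 165 ± 4.76 FPKM in LenR and 164 ± 1.57 FPKM in WT. None of the 18 genes of mitochondrial transcription and RNA processing passed in limma (median −0.05). An unadjusted p under 0.05 was reached by 1 of these 18, against 28.7% of all genes tested. Among them the mitochondrial RNA polymerase POLRMT averaged 51.6 ± 7.74 FPKM in LenR and 48.1 ± 4.85 FPKM in WT, and the mitochondrial DNA-binding factor TFAM averaged 16.4 ± 0.907 FPKM in LenR and 17.7 ± 1.94 FPKM in WT.

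Of 13 regulators of mitochondrial biogenesis, 1 rose and 1 fell (median −0.01), again beside 15.1% of all genes. MYC rose to 382 ± 54.1 FPKM in LenR, against 250 ± 26.4 FPKM in WT (log2 fold change 0.60, limma adjusted p = 0.0157), and passed in 3 of 6 such refits (highest adjusted p 0.0724). The coactivator PPARGC1B fell to 2.82 ± 0.0679 FPKM in LenR, against 4.46 ± 0.251 FPKM in WT (−0.51, adjusted p = 0.00155), on chromosome 5 among neighbours with a median of −0.63. NRF1 measured 10.1, 11.0 and 10.0 FPKM in LenR and 9.83, 10.1 and 11.4 FPKM in WT (−0.01). GABPA measured 9.04, 8.59 and 9.78 FPKM in LenR and 9.48, 9.80 and 8.48 FPKM in WT (−0.02). For both factors the groups overlapped.

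Overlapping genes may limit a few of these values. In GENCODE 29, 40 of the 75 genes share exon bases with another annotated gene. For 27 of them that gene was matched to the table, on the opposite strand for 21. Among these overlaps the share was highest for MRPL53, with 45.2% of its exon bases shared with CCDC142 on the same strand. It was 40.2% for MRPS18C, shared with ABRAXAS1 on the opposite strand, and 32.7% for MRPL43, shared with SEMA4G. These are shares of all exon bases in GENCODE 29, not of the stretch that was counted. MRPS18C shares 1956 bases with ABRAXAS1 there, yet its gene length worked out from the FPKM values was 1101 bases. How much of each overlap was counted is therefore not known. Neither MRPL44 nor MRPL22 shares exon bases with a gene of the table, though 12.9% of those of MRPL44 are shared with an antisense gene not matched to it, AC073641.1. Other genes not matched to the table share 68.2% of the exon bases of MRPL12 (AC139530.2, same strand), 47% of those of MRPS18A (RSPH9, opposite strand) and 37.5% of those of MRPL38 (AC087289.3, same strand).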

How the data were processed

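The authors deposited 1 table of FPKM values for 12760 expressed genes, with 1 column per library that the labels tie to its sample. Build hg38 and the tools edgeR 3.40.2, featureCounts 2.0.3, HISAT2 2.2.1 and FastQC 0.11.9 appear, with no role, in the submitters' processing notes. The annotation, the filter for expression and the strand setting were not given. Whole reads and gene lengths were worked out from the steps between FPKM values (all 12760 genes within 0.03 of a read, 119 after multiplication by a common factor). The library size implied by these steps was 14613691 for WT replicate 3, below its 14685382 reads over the table. The depth used for FPKM was therefore not a plain read total there, and whether normalization factors were applied is not given.

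Genes averaging 1 FPKM or more (11276) entered a limma 3.58.1 fit of log2(FPKM + 1), under R 4.3.3, with group as the only term and trended empirical Bayes moderation (prior degrees of freedom 3.75). Tests were two-sided, with Benjamini-Hochberg adjustment over all genes tested and a threshold of 0.05. Fold changes on this scale understate changes of low genes. SDs are over 3 libraries. The fit was also run on simulated reads, drawn with the same relative spread for every gene and without a low pair. That run cannot show how the low pair affects the calls. Positions came from GENCODE 29, and Python 3.11.15 with matplotlib 3.10.9 made the figures.

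The members, the 5 mitochondrial gene lists, the marker lists and the alternatives were chosen with earlier results of these data known, and motifs after seeing the data. Longer exact forms of the NRF1 and YY1 motifs were searched first and are not reported; the YY1 letters given were searched beside them, and the NRF1 consensus and core were added later. Named were called members, the 3 highest and 3 lowest mean levels per subunit, 19 genes fixed by name, list genes with the strongest calls and 5 regulators. Others, such as MRPS21, MRPL23, DAP3, TUFM and members without overlap, were named after their values were seen.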

Additional observations from a re-analysis of the deposited data

How the results depend on the processing

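MRPL44 passed in the main test and in all 20 refits that recomputed it, while MRPL22 failed in 4 of them, named in the results. The number of members called lower in LenR was 2 in the main test, 7 once LenR replicate 2 and WT replicate 3 had a term of their own, 1 with WT replicates 1 and 2 averaged, and 1 to 2 with 1 library left out. The number called higher was 0 in the main test, 1 with that term, 1 without both libraries, and 0 to 1 with 1 library left out. Over all genes, 966 were higher and 741 lower. These counts were 496 and 411 under the replicate block, 601 and 474 with a mean of at least 5 FPKM, 576 and 476 with WT replicates 1 and 2 averaged, 1729 and 1434 with the term, 1030 and 794 without both libraries, and 545 to 919 and 461 to 681 with 1 library left out. The cause of these shifts was not tested. Some settings have fewer samples or genes by construction, while the replicate block and the term keep all of them. The median log2 fold change ranged from −0.10 to 0.04 for the large subunit and from −0.10 to 0.03 for the small subunit with 1 library left out, and from −0.08 to −0.01 and from −0.07 to 0.00 in the other settings, less than the spread between libraries. The large to small ratio in LenR minus that in WT was −0.09, and −0.11 with genes sorted by position in the ribosome. It was −0.05 without MRPS34, an alternative chosen after seeing the data.

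Replicate numbers did not pair the libraries: deviations from the group mean correlated at 0.024, −0.557 and −0.683 for LenR and WT replicates 1, 2 and 3. The replicate block left MRPL44 (adjusted p = 0.00608) and MRPL22 (0.0477) as the members called. The median half-width of the members' 95% intervals was 0.25 in the main test and 0.14 with the term for LenR replicate 2 and WT replicate 3, so what 3 libraries a group could resolve depended on that term. These libraries were chosen for the term from the same values that it was then fitted to.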

Other observations

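MRPL23 measured 15.4, 27.9 and 13.1 FPKM in LenR replicates 1 to 3 (332, 655 and 339 reads) and 15.2, 16.3 and 11.5 FPKM in WT replicates 1 to 3 (395, 400 and 249 reads), so LenR replicate 2, low for most members, was the highest library for this one. Its log2 fold change was 0.31 with all libraries (SE 0.255, limma adjusted p = 0.487) and −0.14 without WT replicate 3 and LenR replicate 2.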
